A study of Mus musculus with 45 samples.

Results

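Gene expression in the distal colon of mice lacking Il10 was compared between mice given the GPR4 antagonist compound 13 at 30 mg/kg and mice given vehicle. The comparison held 19 of the 45 samples of the series, 9 with the compound and 10 with vehicle, chosen by their titles. One further sample was left out because its title gave 30 mg/kg and its treatment field 10 mg/kg. All 19 samples carried the Il10 knockout genotype. For reference, levels are also given in 8 untreated wild-type samples and in 7 knockout samples given compound 13 at 10 mg/kg, all from the same cohort. Wild-type samples had no vehicle, so they differ from the vehicle group in genotype and in treatment. The labels give the genotype, the agent and the dose. The sources used here do not give the mouse strain, sex, age, length and route of dosing, disease scores or batches. No label says whether each sample was a different animal, and the spread behind the p-values may therefore be technical.

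GPR4 is a receptor of the cell surface that is activated when the extracellular fluid turns acidic, as it does in inflamed tissue. It belongs to a small family of proton-sensing receptors with GPR65 and GPR132, couples to the G protein that stimulates adenylate cyclase, and is best known from endothelial cells, where acid raises adhesion molecules and inflammatory messengers through it. Interleukin 10 restrains the response of macrophages and T cells to gut bacteria, and mice without it develop colitis. A question the design poses is whether blocking GPR4 shifts the inflamed colon, and the files allow both an answer per gene and a statement of how large a shift could have gone unseen.

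Il10 itself had 0 counts in each of the 19 samples, against up to 0.151 CPM (a count scaled to the depth of its sample) in wild type, where the lowest sample also had 0. The total count was 23215057 to 27824876 in vehicle samples and 24712538 to 31007363 at 30 mg/kg and the ranges overlapped. A few samples stood apart in marker lists. Vehicle sample 2 (samples are numbered in the deposited order) had the highest neutrophil and cytokine scores, a score being the mean log2(CPM + 1) of a list. Vehicle sample 3 had an interferon gamma score of 3.63, near the 2.98 to 3.25 of wild type and below the 5.44 to 7.13 of the other vehicle samples. At 30 mg/kg, sample 8 had a high neutrophil score and sample 2 high levels of blood and fat genes. Log2 fold changes that moved by over 0.4 when one of them or all 4 were left out are also given that way, and "without the 4 samples" below means without these together.

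The proton-sensing receptors Gpr4, Gpr65 and Gpr132 were all expressed at low levels, and none differed detectably between 30 mg/kg and vehicle. Gpr4 (ENSMUSG00000044317, 7:19212538-19224174, plus strand, GRCm38) was at 0.487, 1.16 and 1.84 CPM in the lowest, median and highest vehicle sample. At 30 mg/kg the same values were 0.300, 0.955 and 2.30 CPM. The groups overlapped almost entirely, and wild type lay within them at 0.645 to 1.46 CPM. The log2 fold change of Gpr4, here and below 30 mg/kg over vehicle with its SE, was -0.21 ± 0.33 (95% interval -0.89 to 0.47, edgeR adjusted p = 0.999). A doubling and a fall to 0.5 of the vehicle level both lay outside that interval. In bulk tissue, fewer cells of a type and less RNA per cell cannot be told apart, which holds for each gene below.

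Gpr65, found mainly on T cells and other leukocytes, was at 2.03, 3.09 and 7.45 CPM with vehicle and at 1.91, 4.10 and 4.74 CPM at 30 mg/kg (-0.20, interval -0.75 to 0.35). Gpr132, a receptor of leukocytes that also binds lipids, gave -0.37 (-0.86 to 0.12, edgeR adjusted p = 0.917). All 3 intervals lay within 2-fold in either direction. Gpr65 and Gpr132 were higher with vehicle (3.95 ± 1.79 and 5.19 ± 2.02 CPM, SD, n = 10) than the wild-type means of 1.72 and 1.96 CPM, and the treated means of 3.46 and 4.03 CPM lay nearer to vehicle. On the length-corrected TPM scale the order in vehicle samples was Gpr132 (3.05 ± 1.21 TPM), Gpr65 (2.77 ± 1.16) and Gpr4 (0.611 ± 0.252). The first 2 of these lay within each other's spread, while the highest Gpr4 value, 1.06 TPM, was below the lowest values of Gpr132 and Gpr65, 1.12 and 1.48 TPM.

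**Figure D1:**
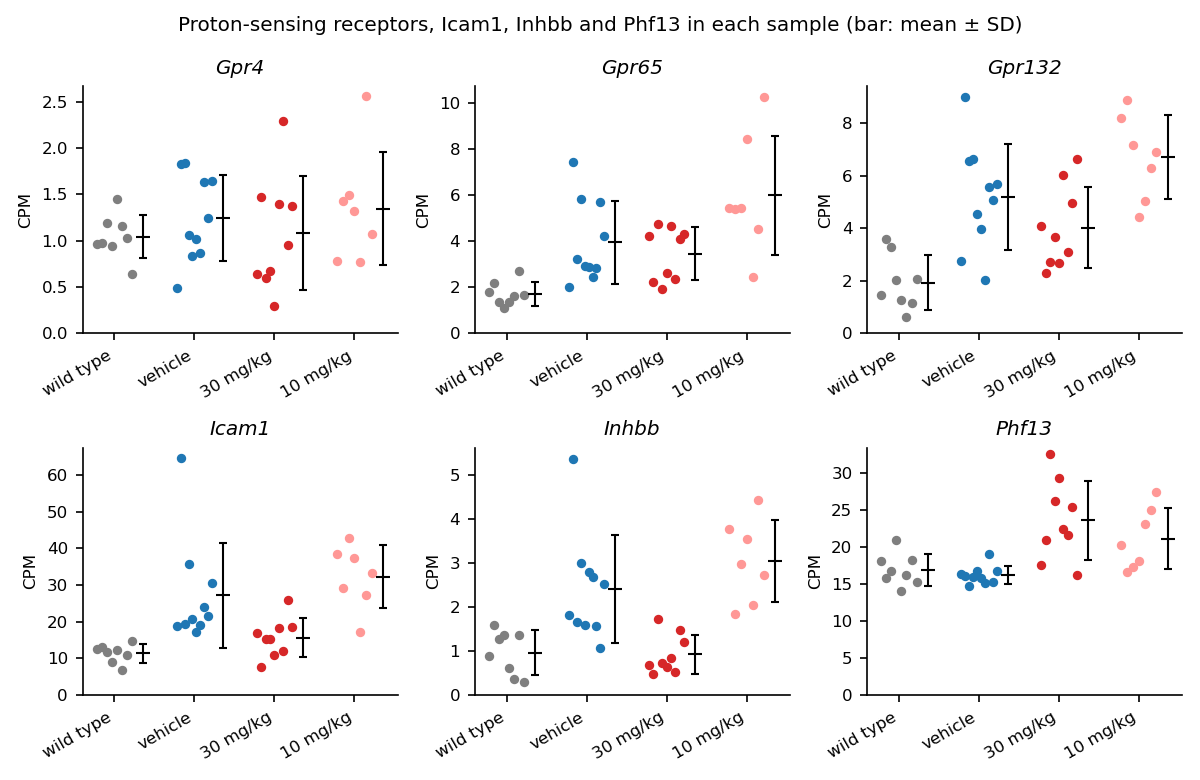
Level in CPM (vertical axes, from 0) of 3 proton-sensing receptors, Icam1, Inhbb and Phf13 in each wild-type, vehicle, 30 mg/kg and 10 mg/kg sample (dots), with the mean and SD of each group (bars). The receptor panels overlap between vehicle and 30 mg/kg. For Inhbb, and likewise for Icam1, 6 of the 9 samples at 30 mg/kg lie below each vehicle sample, and for Phf13, 7 of 9 lie above each of them. These genes were chosen by small p in the same samples, and the share of all genes with such counts was not taken.

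Across the transcriptome, 0 of 16948 tested genes were called between 30 mg/kg and vehicle (0% at an edgeR adjusted p under 0.05), with 0.610 as the lowest adjusted p. An unadjusted p under 0.05 was reached by 1004 genes (5.92% of those tested), 644 of them lower (3.8%) and 360 higher (2.12%). At any p, 8334 of the tested genes were lower and 8614 higher. These counts and shares are the background for each gene list below. Members of a list can vary together between samples, so they are not independent of each other. The lists were also chosen with earlier results of these data known. No gene had all 9 treated samples below all 10 vehicle samples (0%), and none had them all above (0%). The balance of lower and higher depended on the scaling. With total-count scaling 1024 were lower and 94 higher, and with limma on log2(TPM + 1) 950 were lower and 71 higher, while the median over all genes moved from 0.00 to -0.07 and -0.08. Without the 4 samples, 0 genes were called and 366 had an unadjusted p under 0.05.

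The intervals show what the comparison could and could not see. For 12735 genes (75.1%) the whole 95% interval lay within 2-fold in either direction and for 9469 (55.9%) within 1.5-fold. A fall to 0.5 of vehicle was outside the interval for 14045 genes and a doubling for 14501. The precision followed the level. Of 5287 genes at 20 to 100 CPM, 96.5% had intervals within 2-fold, against 58.4% of 3177 genes at 1 to 5 CPM and 10.7% of 2421 genes under 1 CPM. These intervals are for each gene alone and are not widened for the number of genes. To pass after adjustment, a gene standing alone needed an unadjusted p of 2.95e-06. At its own SE, the median gene would have had to differ 2.02-fold for that, genes at 20 to 100 CPM 1.53-fold and genes under 1 CPM 9.65-fold. Gpr4 would have needed 3.85-fold. The spread was close in both groups, with a median SD of log2(CPM + 1) over genes of 0.268 with vehicle and 0.276 at 30 mg/kg.

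**Figure D2:**
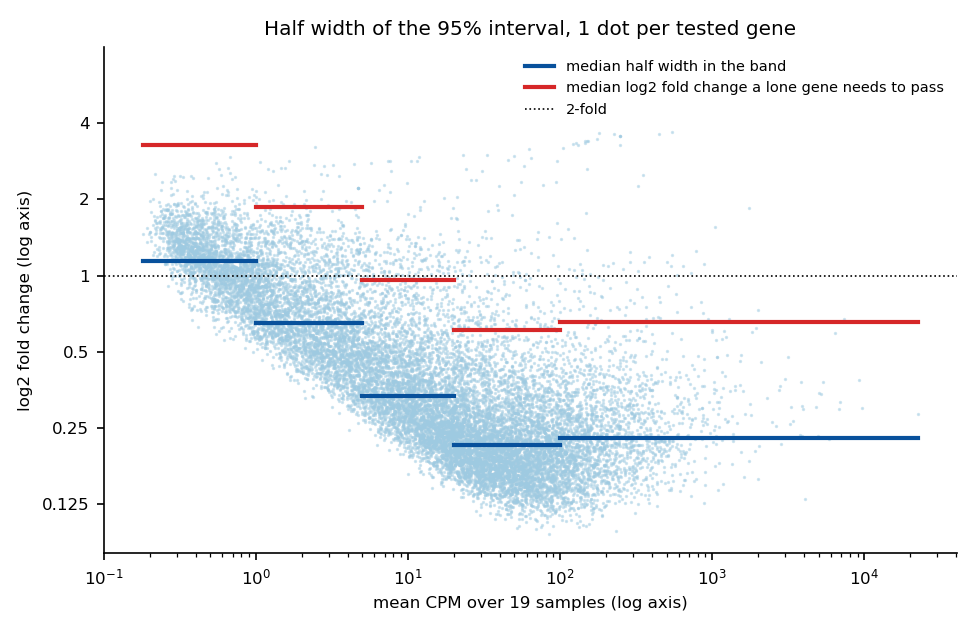
Distance from the estimate to either end of the 95% interval of the log2 fold change (vertical log axis) against the mean CPM over the 19 samples (horizontal log axis), with 1 dot per tested gene. Blue lines are medians in bands of CPM, red lines the median log2 fold change a lone gene would need to pass, and the dotted line is 2-fold. The need falls from 9.65-fold under 1 CPM to 1.53-fold at 20 to 100 CPM.

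Genes that carry or answer the GPR4 signal were mixed in direction. Of 19 genes for the G proteins, adenylate cyclases and effectors that carry the signal, 11 were lower and 8 higher (median log2 fold change -0.01), and 1 reached an unadjusted p under 0.05. That was Adcy7, an adenylate cyclase of blood cells, at 22.02 ± 5.85 CPM with vehicle and 16.7 ± 5.19 CPM at 30 mg/kg (-0.40 ± 0.19). For 18 of the 19 the interval lay within 2-fold. Of 14 early genes of the cyclic AMP response, 10 were lower with a median of -0.15, and Nr4a3, an inducible nuclear receptor, was the one member at an unadjusted p under 0.05 (-0.73, interval -1.39 to -0.08, and -0.20 without the 4 samples). In both lists a count of 1 is near the 5.92% of all genes at an unadjusted p under 0.05 in either direction. Of 11 genes measured from the inflammatory response of endothelium to acid, none reached it. One of these, Ptgs2, the inducible cyclooxygenase, spanned 3.71 to 46.8 CPM with vehicle and 3.11 to 21.2 CPM at 30 mg/kg (-0.82, interval -1.65 to 0.02), and its highest values came from vehicle sample 2 and treated sample 8. Without the former the log2 fold change of Ptgs2 was -0.26, and without the latter -1.25.

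No endothelial leukocyte adhesion gene was called. Of 11 tested members, 9 had log2 fold changes below 0 and 2, Cd34 (0.23) and Jam2 (0.06), above it. Of the 9, 7 were at an unadjusted p under 0.05 against the 3.8% of all genes given above, and the median was -0.64 against 0.00 over all genes. Members of this list can vary together and are not separate pieces of evidence. Icam1 (9:21015985-21028817, plus strand), the ligand of leukocyte beta-2 integrins, was at 17.2, 21.2 and 64.7 CPM in the lowest, median and highest vehicle sample and at 7.5, 15.4 and 25.97 CPM at 30 mg/kg. Treated samples lay below each vehicle sample in 6 of 9 cases for Icam1, and its log2 fold change was -0.80 ± 0.24 (interval -1.30 to -0.31, edgeR adjusted p = 0.835). The share of all genes with such a count was not taken. Vcam1, the ligand of integrin alpha-4 beta-1, was at 14.9, 22.3 and 51.6 CPM with vehicle and at 9.75, 15.4 and 22.8 CPM at 30 mg/kg (-0.77 ± 0.22). Madcam1, which directs lymphocytes into gut venules, was at 1.39, 4.18 and 7.60 CPM against 0.434, 2.06 and 4.05 CPM (-0.93 ± 0.29). The other 4 were Selp (-1.13, and -0.87 without vehicle sample 2), Glycam1 (-0.96, and -0.53 without the 4 samples), Icam2 (-0.64) and Pecam1 (-0.35), the first 3 at means under 3 CPM.

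General endothelial genes were lower by smaller amounts, a difference from the adhesion genes that was not tested. All 14 were lower, with a median of -0.22, and 4 reached an unadjusted p under 0.05, against 3.8% of all genes. These were Flt1 and Kdr, receptors of vascular endothelial growth factor (-0.59 each), Plvap (-0.55) and Pecam1. The adhesion score was 2.34 to 3.29 with vehicle, 1.98 to 2.82 at 30 mg/kg and 2.48 to 2.93 in wild type, so 5 of 9 treated samples lay below each vehicle sample. Leaving out vehicle sample 4, vehicle sample 8 or treated sample 4 left 4 adhesion genes at an unadjusted p under 0.05 in place of 7. Leaving out treated sample 1 left 2 endothelial genes in place of 4. Without the 4 samples the counts were 3 and 0, with medians of -0.53 and -0.19. At 10 mg/kg, with the same vehicle samples as control, Icam1 was at 0.25, Vcam1 at 0.31 and Madcam1 at 0.60. Between 30 and 10 mg/kg, 0 genes were called (lowest edgeR adjusted p = 0.0747), so no difference between doses, here or below, is established for any gene.

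**Figure D3:**
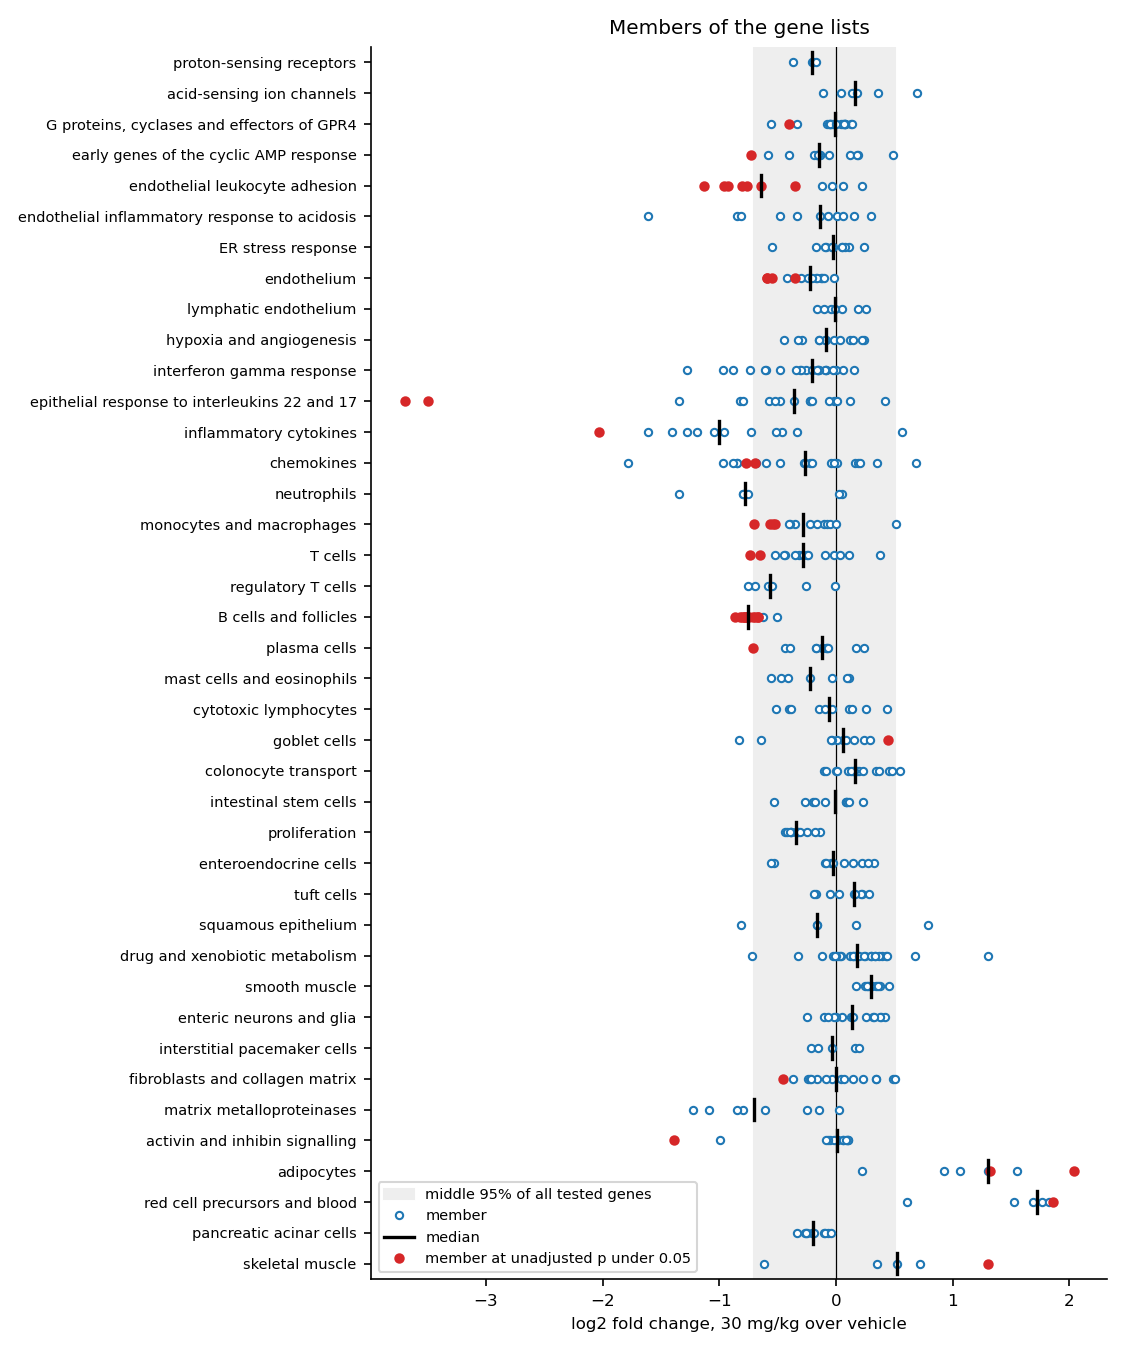
Log2 fold change, 30 mg/kg over vehicle (horizontal axis), of each tested member of 40 gene lists (rows, open circles), with the median of the list (black bar). Filled red circles are members at an unadjusted p under 0.05, and the grey band holds the middle 95% of all tested genes, -0.71 to 0.50. The B cell and adhesion rows hold 12 and 7 filled circles.

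B cell and follicle genes were lower throughout. All 14 were tested and all 14 were lower, 12 at an unadjusted p under 0.05, against 3.8% of all genes, and none called. As markers of the same cells, the 14 can vary together and are not separate pieces of evidence. The median of -0.75 lay between -0.85 and -0.73 under the other scalings and tools. Cr2 (1:195136811-195176716, minus strand), the complement receptor of B cells and follicular dendritic cells, was at 9.74, 47.3 and 84.4 CPM in the lowest, median and highest vehicle sample and at 6.2, 24.96 and 41.2 CPM at 30 mg/kg. The ranges overlapped, and all 9 treated samples lay below the vehicle mean of 46.02 CPM (-0.81 ± 0.33, edgeR adjusted p = 0.835). Ms4a1, which encodes CD20, gave -0.72, and Cd79a, part of the antigen receptor, -0.67. Cxcr5 and its ligand Cxcl13, which draw B cells into follicles, gave -0.76 and -0.70. Ighm, the heavy chain of IgM, was at 99.0 ± 46.4 CPM with vehicle and 60.9 ± 25.9 CPM at 30 mg/kg (-0.71 ± 0.27), while plasma cell genes as a list had a median of -0.12.

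The summed level of the 14 B cell genes was 117 to 670 CPM with vehicle (median 417), 83.3 to 393 CPM at 30 mg/kg (median 259) and 44.0 to 363 CPM in wild type. A distal colon sample holds more or fewer lymphoid follicles by where it is taken, and the part of such sampling in the B cell values was not tested. Nor was the part of these cells in the adhesion genes, of which Madcam1 and Glycam1 also mark the venules of lymphoid tissue. The count at an unadjusted p under 0.05 fell to 7 of 14 without vehicle sample 2. Without the 4 samples it was 0 of 14, with all 14 still lower and a median of -0.39. At 10 mg/kg the B cell score was 4.90 ± 0.374 (n = 7), against 4.49 ± 0.742 with vehicle and 3.82 ± 0.685 at 30 mg/kg.

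Interferon gamma response scores were above wild type in both groups. All 23 interferon gamma response genes were tested. Of these 21 were lower at 30 mg/kg, 0 at an unadjusted p under 0.05, with a median of -0.20. For all 23 the lower end of the interval, applied to the vehicle mean, lay above the wild-type mean. Both means were taken without their error, and treated samples were not tested against wild type. The score was 4.74 to 6.47 at 30 mg/kg and 3.63 to 7.13 with vehicle, each sample above the 3.25 that wild type reached. Gbp5, a guanylate-binding protein of host defence, was at 5.24, 15.8 and 80.3 CPM with vehicle and at 7.89, 13.6 and 17.7 CPM at 30 mg/kg, against 2.62 to 3.68 CPM in wild type (-0.73, interval -1.51 to 0.04). Its highest value came from vehicle sample 2, without which the log2 fold change was -0.25. Ifng itself was at 0.198, 0.689 and 9.36 CPM with vehicle and at 0, 0.606 and 2.03 CPM at 30 mg/kg, a spread that left an interval of -2.76 to 0.20 around -1.28. Without vehicle sample 2 the log2 fold change of Ifng was -0.21, and without treated sample 8 it was -1.69.

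Of 17 epithelial genes induced by interleukins 22 and 17, 14 were lower with a median of -0.36. Reg3b and Reg3g, antimicrobial lectins, reached an unadjusted p under 0.05. Reg3b was at 1.22, 80.1 and 4193 CPM with vehicle and at 4.70, 59.1 and 123 CPM at 30 mg/kg, and the highest vehicle values, 4193 and 1452 CPM, came from samples 2 and 7. Its log2 fold change was -3.49, and -1.98 without vehicle sample 2. Reg3g gave -3.70, and -2.12 without it. Reg3b and Reg3g are close relatives, and reads shared between such genes may be split between them. Without vehicle sample 2 neither reached an unadjusted p under 0.05, and the median of the list was 0.12. Without treated sample 8 it was -0.90.

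Cytokines (11 of 12 lower, median -1.0) and neutrophil genes (5 of 7 lower, median -0.78) leaned on the same samples. S100a8, a calcium-binding protein of neutrophils, was at 0.148, 7.71 and 510 CPM with vehicle and at 0, 4.84 and 151 CPM at 30 mg/kg (-1.35, 0.81 without vehicle sample 2 and -2.74 without treated sample 8). The neutrophil median was 0.40 and the cytokine median -0.08 without vehicle sample 2. Without treated sample 8 they were -1.40 and -1.69, with 3 and 7 genes at an unadjusted p under 0.05 in place of 0 and 1. Without the 4 samples they were -0.61 and -0.60, with 1 and 3 genes. Il21, a helper T cell cytokine that acts on B cells, was the one cytokine at an unadjusted p under 0.05, at 0.0435 to 2.30 CPM with vehicle and 0 to 0.357 CPM at 30 mg/kg (-2.03, interval -3.44 to -0.62, and -1.50 without vehicle sample 2). Among 22 chemokines, 16 were lower, with Cxcl13 and Ccl22, which attracts T cells, at an unadjusted p under 0.05 (Ccl22 -0.77). Without treated sample 8 it was 6 chemokines in place of 2.

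Of 14 monocyte and macrophage genes, 12 were lower and 4 reached an unadjusted p under 0.05, and 1 did without vehicle sample 2. Of all genes, 3.8% were lower at that p. The 4 were C1qa, a complement subunit (43.8 ± 13.1 CPM against 30.2 ± 8.36 CPM, -0.54), the integrin Itgam (-0.70), the lysozyme Lyz2 (-0.57) and Csf1r, the receptor of macrophage growth factor, which was named after its values were seen. T cell genes were lower in 12 of 15 cases, with Icos, a costimulator (-0.74), and Cd2, an adhesion molecule (-0.65, and -0.22 without the 4 samples), at an unadjusted p under 0.05. That count of 2 ranged from 0 without treated sample 2, treated sample 7, vehicle sample 2 or vehicle sample 4 to 7 without treated sample 1. The T cell score was 1.71 to 3.16 at 30 mg/kg, above the 1.58 that wild type reached in 9 of 9 samples. All 12 proliferation genes were lower (median -0.34), 0 of them at an unadjusted p under 0.05, and all 12 intervals lay within 2-fold. Plk1, a mitotic kinase, was at 30.6 ± 6.88 CPM with vehicle and 23.4 ± 7.14 CPM at 30 mg/kg (-0.39).

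**Figure D4:**
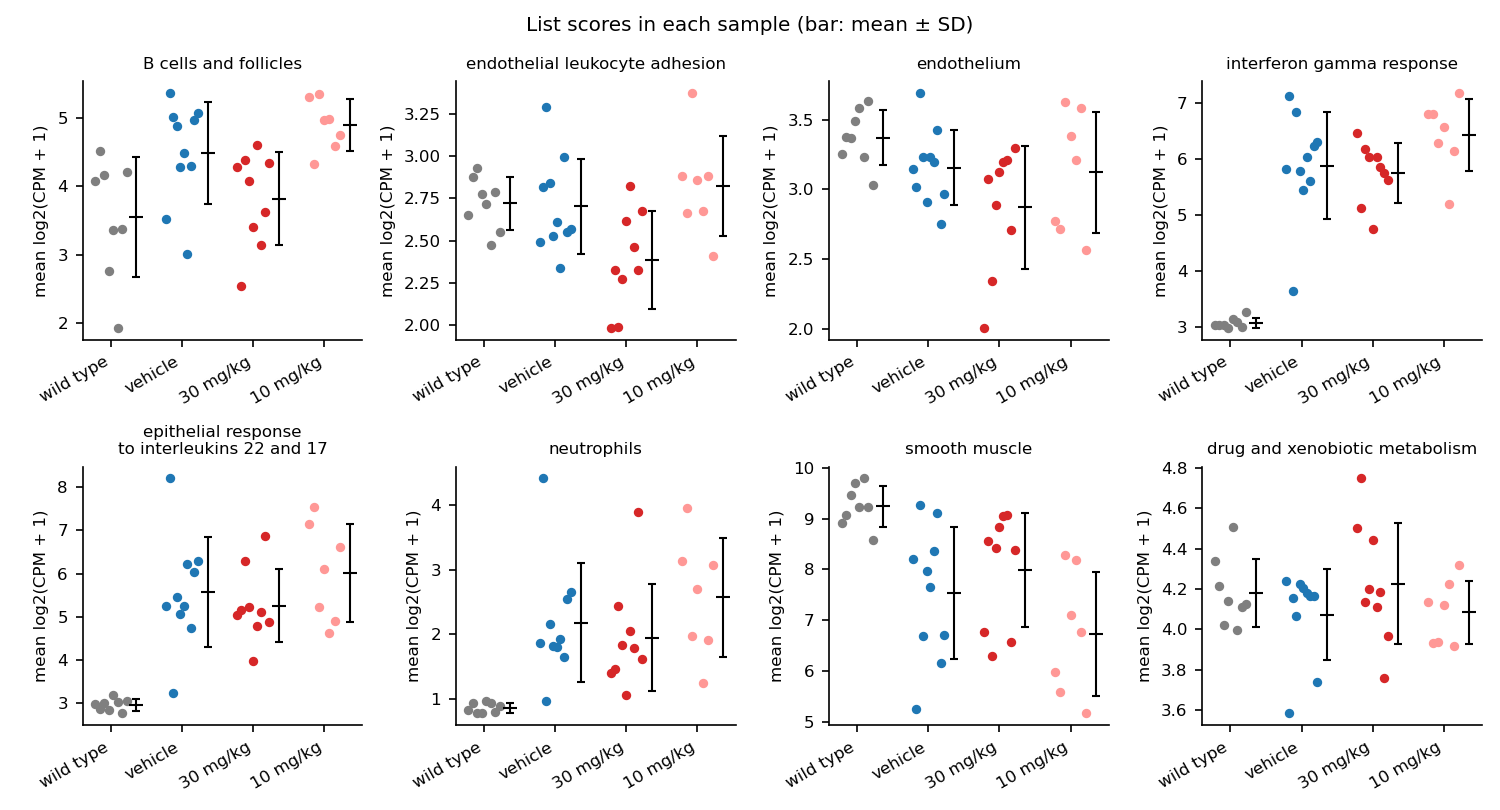
Score of 8 gene lists, the mean log2(CPM + 1) of the members (vertical axes, not from 0), in each sample (dots) with the mean and SD of each group (bars). Interferon gamma scores at 30 mg/kg, 4.74 to 6.47, lie within the vehicle range of 3.63 to 7.13 and above wild type. All 9 treated samples lie below the vehicle median of 4.68 in the B cell panel.

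Epithelial transport and metabolic genes leaned the other way by small amounts. Of 16 colonocyte transport genes, 13 were higher with a median of 0.17, 0 reached an unadjusted p under 0.05, and a fall to 0.5 was outside all 16 intervals. Aqp8, a water channel, was at 628, 980 and 1406 CPM with vehicle and at 631, 1001 and 3012 CPM at 30 mg/kg (0.46, interval -0.10 to 1.02). Of 26 tested genes of drug and xenobiotic metabolism, which can respond to a dosed compound, 21 were higher and none reached an unadjusted p under 0.05 (median 0.18). Nr1i2, the xenobiotic sensor PXR, was at 69.6 ± 8.96 CPM with vehicle and 79.9 ± 14.6 CPM at 30 mg/kg (0.19, interval -0.01 to 0.40), and Cyp3a13, a cytochrome P450, at 27.3 ± 8.66 and 36.1 ± 13.5 CPM (0.40, interval -0.03 to 0.82). Tff3, a trefoil peptide of goblet cells, was at 625.2, 1004 and 1283 CPM with vehicle and at 840, 1185 and 1885 CPM at 30 mg/kg. It was above the vehicle mean in 8 of 9 samples (0.44 ± 0.15, edgeR adjusted p = 0.835), while the goblet list as a whole had a median of 0.06, which turned below 0 with total-count scaling and with TPM.

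Genes of deeper or neighbouring tissue varied between samples more than between groups. All 10 smooth muscle genes were higher at 30 mg/kg (median 0.30), but the summed level ran from 480 to 8768 CPM with vehicle and from 1038 to 7444 CPM at 30 mg/kg, and 0 reached an unadjusted p under 0.05. All 7 fat cell genes were higher, with Retn, the hormone resistin (2.04), and Fabp4, a fatty acid carrier (1.32), at an unadjusted p under 0.05. The median of that list was 1.299, and 0.44 without treated sample 2, where no fat gene reached that p, with Retn at 1.01 and Fabp4 at 0.56. Blood genes were higher in 6 of 6 cases (median 1.73), which rested on treated sample 2. Hba-a1, an alpha-globin with a near-identical copy, was at 409 CPM there and at 4.30 to 15.2 CPM in the other treated samples, and its log2 fold change of 1.86 became -0.59 without that sample. Pancreatic acinar genes were at a summed 49.2 to 15610 CPM with vehicle, 80.6 to 10010 CPM at 30 mg/kg and 175 to 9509 CPM in wild type. Their part in the results above was not tested. Fibroblast and matrix genes were 8 higher and 8 lower, with Tgfb1, a growth factor of scarring and immune restraint, alone at an unadjusted p under 0.05 (-0.46, interval -0.86 to -0.06). That count is near the 5.92% of all genes at that p in either direction.

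The 20 genes with the smallest unadjusted p, 10 in each direction among genes at 1 CPM or more, were led by Phf13, which is described with the higher genes, and by Inhbb. The 20 were chosen by p in the same samples, so counts of treated samples beyond vehicle samples add no separate support. The share of all genes with such counts was not taken. Inhbb (1:119415465-119422248, minus strand), the beta-B subunit of activin and inhibin, was at 1.07, 2.18 and 5.38 CPM in the lowest, median and highest vehicle sample and at 0.477, 0.718 and 1.72 CPM at 30 mg/kg. All 9 treated samples lay below the vehicle mean and 6 below each vehicle sample. The log2 fold change was -1.39 ± 0.30 (interval -2.002 to -0.78, edgeR adjusted p = 0.610) and -1.56 to -1.18 with any 1 sample left out. Treated values lay at the wild-type range of 0.282 to 1.595 CPM, whereas Inhbb at 10 mg/kg was at 1.85 to 4.44 CPM (0.34 over the same vehicle samples). No other of 14 tested activin and inhibin genes reached an unadjusted p under 0.05. Inhba, the beta-A subunit, gave -0.99 (interval -2.17 to 0.18), with vehicle sample 2 at 4.76 CPM and the other vehicle samples at 0.223 to 1.04 CPM. Without vehicle sample 2 it gave -0.26.

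None of the other 9 lower genes of this ranking was called. Kynu, kynureninase of tryptophan breakdown, was at 3.54 ± 1.58 CPM with vehicle and 1.65 ± 0.597 CPM at 30 mg/kg (-1.10 ± 0.26). Ltb, lymphotoxin beta, which organises lymphoid tissue, was at 14.9, 34.8 and 55.3 CPM against 9.88, 17.5 and 30.97 CPM (-0.88 ± 0.23). Pla2g2d, a secreted phospholipase of lymphoid tissue, gave -0.87, Bin2, a membrane-shaping protein of blood cells, -0.78, Fermt3, the integrin activator kindlin-3, -0.68, Sipa1, which switches off the small GTPase Rap, -0.66, and the endosomal protein Snx8 -0.55. Serpina1a, an alpha-1-antitrypsin with close copies in the genome, gave -1.11 and the unnamed transcript 2900052N01Rik -1.05. Of these 9, 8 had all 9 treated samples below the vehicle mean, and Pla2g2d had 8, which their choice by p in these samples makes likely.

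The higher genes differed by less, with smaller errors. Phf13 (4:151989633-151996258, minus strand), a chromatin reader of histone H3 methylation, was at 14.8, 16.0 and 19.03 CPM with vehicle and at 16.2, 22.5 and 32.6 CPM at 30 mg/kg, with 7 of 9 treated samples above each vehicle sample (0.54 ± 0.12, interval 0.30 to 0.78, edgeR adjusted p = 0.610). Phf13 in wild type was at 14.1 to 21.02 CPM. At 10 mg/kg, over the same vehicle samples by which it was chosen, it gave 0.39. Arrdc4, an alpha-arrestin, was at 142 ± 17.4 and 202 ± 51.1 CPM (0.50 ± 0.11), and Mat2a, which makes the methyl donor S-adenosylmethionine, at 279 ± 36.7 and 354 ± 36.9 CPM (0.33 ± 0.08). Sertad3 gave 0.45, Gadd45b, a stress-induced regulator, 0.48, Ripk4, a kinase of epithelial differentiation, 0.39, Gm13648 0.35, Zfand2b 0.32, Ggact 0.30, and Mgea5, the enzyme that removes O-linked N-acetylglucosamine, 0.22. The upper bound for Mat2a was 1.41-fold and that for Phf13 1.71-fold.

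**Figure D5:**
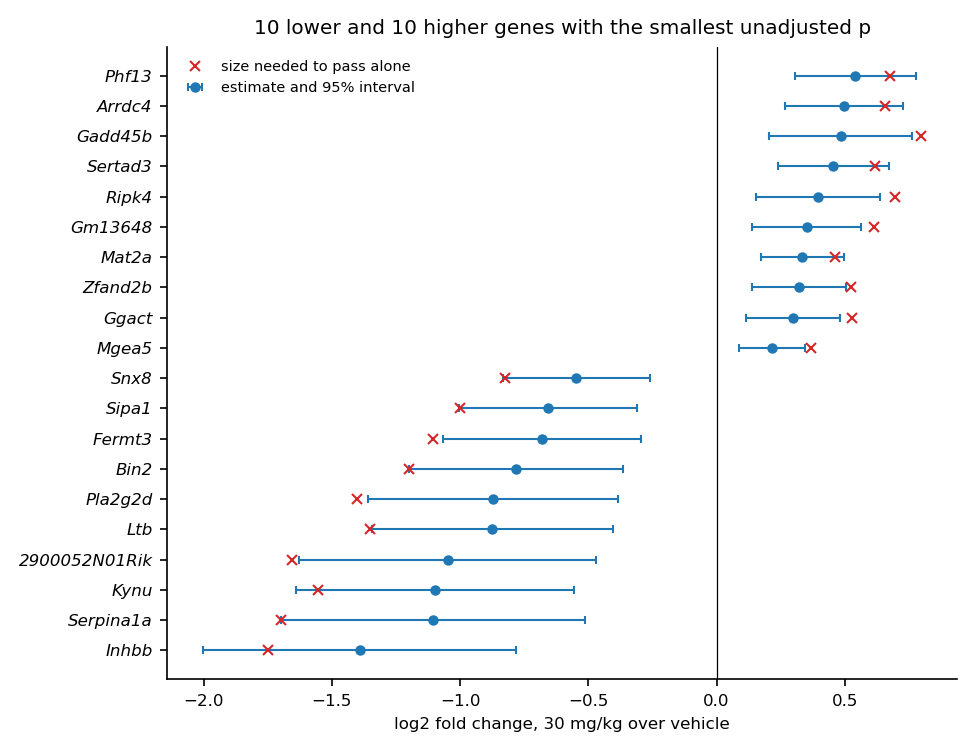
Log2 fold change, 30 mg/kg over vehicle (horizontal axis), of the 10 lower and 10 higher genes with the smallest unadjusted p, with 95% intervals (bars), and the size each would have needed to pass alone at its own SE (red crosses). Each estimate falls short of its cross, including Inhbb at -1.39 and Phf13 at 0.54.

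Other tools and the authors' deposited table gave few calls. DESeq2 called 3 of 28174 genes (0.0106%), with 1216 at an unadjusted p under 0.05, and limma voom called 0, with 884. The DESeq2 calls were Inhbb (adjusted p = 0.0165), Gm45837 and Gm26883. Gm45837 (7:101410886-101512819, plus strand) was at 4.19, 13.5 and 20.2 CPM in 3 vehicle samples and had 0 counts in the other 7 and in all 9 treated samples. It also had counts in 2 samples at 10 mg/kg. Gm26883 had 27 counts in 1 vehicle sample and none at 30 mg/kg. Both fell below the edgeR filter. The authors' deposited table for this comparison held 17667 genes with a p-value, of which 1 was under 0.05 after adjustment, Gm45837. In the authors' deposited table Inhbb was at -1.17 (adjusted p = 0.158) and Gpr4 at -0.15 (adjusted p = 0.949). Over 16944 genes tested in both, the log2 fold changes of the authors' deposited table and of edgeR differed by a median of 0.04. Single genes differed by more, with Hba-a1 at -0.52 there against 1.86 and S100a8 at -3.45 against -1.35. Madcam1, Glycam1, Pecam1, Ms4a1, Cd22, Pax5 and Cr2 were lower there too, but at an unadjusted Wald p over 0.05. The other adhesion and B cell genes under 0.05 with edgeR stayed under it.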

How the data were processed

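Messenger RNA of the distal colon was sequenced after poly(A) enrichment, per the labels. Per the submitters' processing notes the tools were cutadapt 3.7, STAR 2.7.8a, RSEM 1.3.3 and DESeq2 1.30.1 with build mm10. Strandedness and the handling of reads shared between genes are not given in these sources. The authors deposited estimated counts per gene (17.2% of values above 0 were not whole), TPM, and a table with log2 fold changes and p-values (deposited by the authors, whose samples and design are not given in these sources). Of 50600 identifiers, 50376 matched GENCODE M21.

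Estimated counts were rounded and fitted with edgeR 4.0.16 (TMM, default expression filter, robust quasi-likelihood) over the 26 knockout samples of the cohort, with the contrast 30 mg/kg minus vehicle and Benjamini-Hochberg adjustment over all tested genes. SE is the log2 fold change over the root of F, and intervals are 95%. CPM are scaled by TMM over 34 samples. DESeq2 1.42.0, limma 3.58.1, other scalings, filters and left-out samples were alternatives. No 2 samples of a group agreed within sampling noise (lowest chi-square per degree of freedom 33.2 for vehicle and 38.7 at 30 mg/kg). Scripts were tested on simulated data. The comparison, the gene lists and the rule for named genes were chosen with earlier results of these data known. Named were Il10, proton-sensing and activin genes, the 10 lowest p in each direction at 1 CPM or more, the 3 lowest p of each list, all adhesion, B cell and xenobiotic genes at an unadjusted p under 0.05, genes called by another tool, and the 3 most expressed genes of 7 lists; not every gene so eligible is printed. A few eligible genes are not reported here.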

Additional observations from a re-analysis of the deposited data

Results flagged for a closer look

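Of 212 groups of values looked at, 25 had a sample far from the others by Dixon's test at 95%. Chance gives about 1 in 20 only for independent groups of normally distributed values. The groups here share samples and some genes, so 25 of 212 cannot be set against that rate. Vehicle sample 2 was high in the lists for the endothelial response to acid (4.91, others up to 3.83), cytokines (2.63, others up to 1.31), chemokines (4.24, others up to 3.29), neutrophils (4.40, others up to 2.66) and matrix metalloproteinases (4.60, others up to 2.77), each as mean log2(CPM + 1). It was also high in Ifng (9.36 CPM), Inhba (4.76), Selp (2.03) and Ptgs2 (46.8) and low in Ggact (17.2). Vehicle sample 3 was low in the interferon gamma list (3.63) and high in Pecam1 (39.7 CPM). Treated sample 8 was high in cytokines (1.81), neutrophils (3.89), matrix metalloproteinases (3.90) and Ptgs2 (21.2 CPM). Treated sample 2 was high in blood genes (6.47) and Hba-a1 (409 CPM) and low in Madcam1 (0.434 CPM). Single values were Phf13 in vehicle sample 8 (19.03 CPM), Gm13648 in treated sample 1 (25.5), 2900052N01Rik in vehicle sample 7 (0.565) and treated sample 7 (0.403), Gm26883 in vehicle sample 4 (1.03) and the stem cell list in treated sample 3 (2.98).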

How the results depend on the processing

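The count of 0 called genes held under each alternative except DESeq2, which called 3. The count at an unadjusted p under 0.05 was 2802 without a filter on low counts, 616 to 1195 with any 1 sample left out (616 without treated sample 2, 668 without treated sample 5, 663 without vehicle sample 2) and 366 without the 4 samples that stood apart, an alternative chosen after seeing the data. The median log2 fold change needed to pass was 1.02 over the 16948 genes of the main fit. It was 2.09 with DESeq2 and 2.60 without the filter, over larger sets that add genes with few counts. These medians are therefore not for the same genes. The log2 fold change of Hba-a1 changed sign with DESeq2 (-0.56), without the 4 samples (-0.68) and over left-out samples (-0.59 without treated sample 2, up to 2.25), and S100a8 did so without vehicle sample 2 (0.81, against down to -2.74 for other left-out samples). Where these rested on 1 sample, that sample is named. For other changes the cause was not tested. Inhbb gained its call with DESeq2 alone. List medians moved by over 1 SD of the sample scores in 14 cases over left-out samples and by less in 746. Of genes under 1 CPM, 10.7% had an interval within 2-fold, against 96.5% of those at 20 to 100 CPM. No paired analysis was possible because the labels give no replicate numbers, and those used here only count samples in the order of deposit.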
